A study of Mus musculus with 48 samples.

Results

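Serotonin receptors and the serotonin transporter were examined in punches of mouse amygdala. The genes were Htr1a, Htr1b, Htr2a, Htr2c, Htr3a, Htr4, Htr5a, Htr6 and Htr7, which encode receptors, and Slc6a4, which encodes the transporter. They were chosen by symbol and matched to the Ensembl identifiers of the deposited expression table, and all 10 were found among its 52636 genes. Values are TPM, in which the reads of a gene are divided by its length and scaled to the library, so levels of different genes can be compared.

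The 48 libraries came from female mice of the C57BL/6NTac-Brd1 strain, aged 8 to 11 weeks, and were split evenly over 6 groups of 8. WT mice had both copies of Brd1, a gene for a chromatin reader protein, and Brd1+/- mice carried a heterozygous deletion of an internal stretch of it. WT vehicle and Brd1+/- vehicle mice had received saline, WT IMN and Brd1+/- IMN mice imipramine at 10 mg/kg, and WT FLX and Brd1+/- FLX mice fluoxetine at 5 mg/kg. Per the study's methods, every mouse, those given saline included, had been injected on each of 2 days and put through tail suspension, open field and forced swim tests, and was killed soon after swimming. The deletion was not limited to a cell type in the descriptions used here, so the genotype concerns the whole animal and not the amygdala alone. The treatment was short, and the comparisons below therefore concern acute dosing in swum mice.

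Serotonin is released in the forebrain by axons whose cell bodies lie in the raphe nuclei of the brainstem. The receptors of families 1 and 5 couple mainly to inhibitory Gi/o proteins, those of family 2 to Gq and phospholipase C, and those encoded by Htr4, Htr6 and Htr7 to Gs and adenylyl cyclase, while the family 3 receptor is an ion channel. Slc6a4 protein clears serotonin from the extracellular space and is the main target of fluoxetine, and it is also bound by imipramine. Its mRNA is made in the raphe cell bodies, and the amygdala is a known target of their axons.

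Sequence upstream of the transcription start is shown for 6 of the genes whose levels are set against each other below: the most and the least abundant member, Htr2c and Slc6a4, the pair with opposite patterns across punches, Htr1b and Htr1a, and Htr6 and Htr7, which had the smallest p-values. Each run is the 150 bases before a RefSeq start on GRCm38.p6, 5′ to 3′ on the strand of the gene, with capitals marking GGGCGG or its reverse complement CCGCCC, the letters of a GC box. Matches that overlap are joined in 1 run of capitals. RefSeq starts can differ from the gene positions given further below, which are from GENCODE. Most of the Htr7 run and part of the Htr1a run lie inside those positions.
Htr2c (chrX:146962363-146962512, plus strand): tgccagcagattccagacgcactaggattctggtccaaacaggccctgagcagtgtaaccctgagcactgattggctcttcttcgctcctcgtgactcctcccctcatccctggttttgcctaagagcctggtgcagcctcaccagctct
Slc6a4 (chr11:76998447-76998596, plus strand): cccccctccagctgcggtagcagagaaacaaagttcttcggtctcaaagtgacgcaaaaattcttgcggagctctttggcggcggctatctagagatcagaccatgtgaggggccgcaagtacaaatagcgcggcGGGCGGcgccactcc
Htr1b (chr9:81633833-81633982, minus strand): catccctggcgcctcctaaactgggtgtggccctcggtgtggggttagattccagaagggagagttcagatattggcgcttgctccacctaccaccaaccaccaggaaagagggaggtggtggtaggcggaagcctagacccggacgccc
Htr1a (chr13:105443543-105443692, plus strand): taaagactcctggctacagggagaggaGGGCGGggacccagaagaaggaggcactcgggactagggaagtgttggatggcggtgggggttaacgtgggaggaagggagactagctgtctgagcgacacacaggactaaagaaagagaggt
Htr6 (chr4:139075571-139075720, minus strand): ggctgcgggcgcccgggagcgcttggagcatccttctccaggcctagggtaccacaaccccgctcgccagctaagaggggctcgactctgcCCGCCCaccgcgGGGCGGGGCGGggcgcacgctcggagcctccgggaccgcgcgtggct
Htr7 (chr19:36057361-36057510, minus strand): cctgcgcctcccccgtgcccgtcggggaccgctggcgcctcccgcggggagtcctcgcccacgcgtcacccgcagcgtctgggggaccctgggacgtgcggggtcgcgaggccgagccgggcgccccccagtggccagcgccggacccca
RefSeq entries were matched by symbol for Htr1a, Htr1b, Htr2a, Htr2c, Htr5a, Htr6, Htr7 and Slc6a4. The windows differed widely in base composition. Over the full 300 bases around the start, G and C made up 81.0% for Htr7, with 46 CpG dinucleotides, 67.7% for Slc6a4, with 28 CpG, and 56.3% for Htr2c, with 5 CpG, against a median of 52.7% and 7 CpG over 32851 RefSeq windows of the same length. GGGCGG, searched on both strands, was in 35.7% of those windows, TATAAA in 13.6% and TGACGTCA, the full cAMP response element, in 1.79%. No matched window held TATAAA or TGACGTCA, and nothing about transcription factors follows from these letters.

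The punches differed in makeup, and this may enter the values below, which are those of whole punches. Summed TPM of 10 striatal projection neuron markers ran from 227.4 to 12908 over the WT vehicle libraries alone, and that of 6 cortical and basolateral glutamatergic neuron markers from 134 to 2592 over the WT IMN libraries. Summed TPM of 8 amygdala markers ran from 135.5 to 891 over all groups, and none of these markers was at 0 throughout a group. The choroid plexus marker Ttr was at 1000 TPM or more in 8 libraries, and Brd1+/- vehicle replicate 7 stood apart with 8.99 TPM of the hindbrain and midbrain gene Lmx1b and 53.9 TPM of Slc18a2. Brd1 itself averaged 35.6 ± 5.09 TPM (SD) in WT vehicle and 26.0 ± 2.90 in Brd1+/- vehicle libraries, 36.9 ± 2.83 and 23.4 ± 4.84 after IMN, and 32.9 ± 4.45 and 23.5 ± 3.49 after FLX. In exact two-sided permutation tests of these differences p was 0.00109, 0.000155 and 0.000777, the second being the smallest that 12870 arrangements can give. Fitted with limma, Brd1 had adjusted p-values of 0.0512, 0.102 and 0.0362, in that order, and the call after FLX held in 5 of 16 fits that left out 1 library.

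Htr2c was the most abundant receptor mRNA, and Slc6a4 was near 0. Over all 48 libraries Htr2c averaged 71.4 ± 28.8 TPM (SD) and supplied 49.7% of the summed TPM of the 10 genes. Htr1b followed at 21.0 ± 15.0, Htr2a at 11.4 ± 7.49, Htr7 at 10.1 ± 5.6, Htr1a at 7.98 ± 4.39, Htr5a at 6.68 ± 1.94, Htr6 at 5.92 ± 3.92, Htr3a at 4.90 ± 3.97 and Htr4 at 4.22 ± 2.58. Slc6a4 averaged 0.0190 ± 0.0618 TPM. Htr2c exceeded Htr1b in 40 of 48 libraries, and the ranges of mean ± SD did not overlap for this pair or for Htr4 and Slc6a4. From Htr1b down to Htr4 the ranges of every neighboring pair overlapped, which describes spread between libraries and is not a test of difference. Within libraries the order varied in firmness: Htr1b exceeded Htr2a in 42 of 48, Htr7 exceeded Htr1a and Htr5a exceeded Htr6 in 36 each, and Htr2a exceeded Htr7 in 20.

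**Figure D1:**
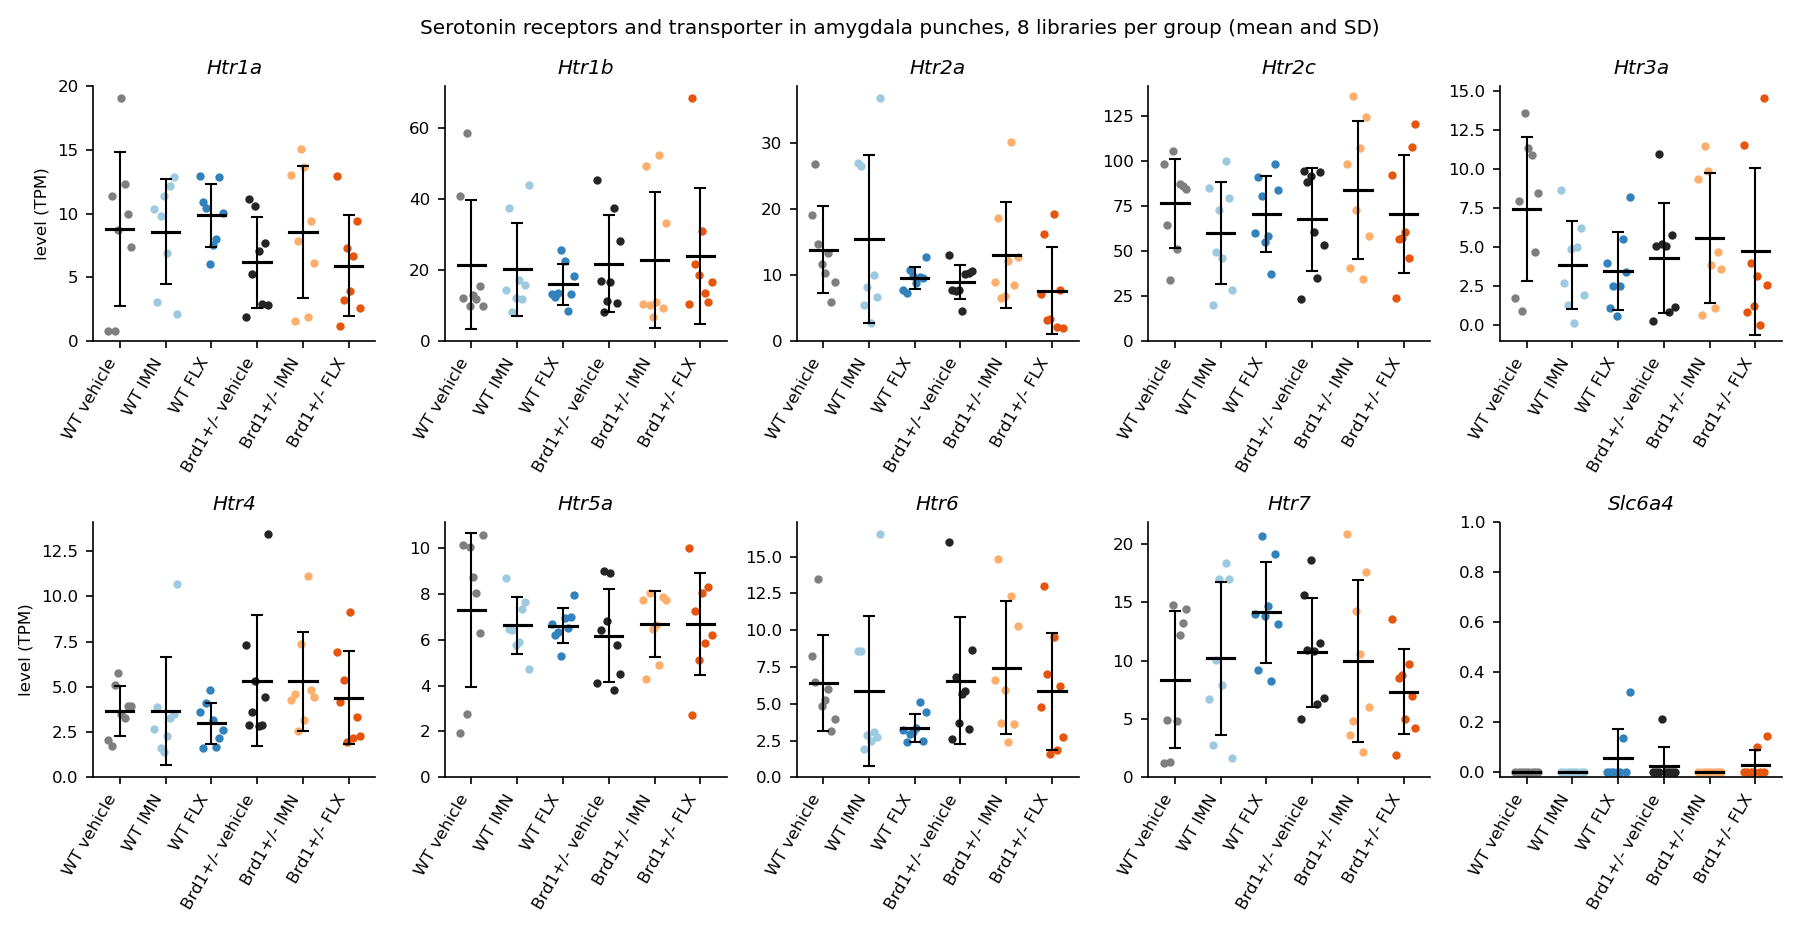
Level of each gene in TPM (vertical axes, linear) in the 6 groups, with 1 point per library and the mean with SD as bars. The groups overlap for every receptor gene, Htr5a (1.92 to 10.6 TPM) is the most even, and Slc6a4 lies at 0 in 43 of 48 libraries.

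Slc6a4 (ENSMUSG00000020838, chr11:76998603-77032340, plus strand of GRCm38) was listed at 0 in 43 libraries. The 5 others held 0.320 and 0.136 TPM (WT FLX), 0.212 TPM (Brd1+/- vehicle), and 0.144 and 0.101 TPM (Brd1+/- FLX). The gene passed the filter on low values, 0.1 TPM in at least 8 libraries, in no comparison, and no drug or genotype test of the transporter was therefore made. The depth behind a TPM value is unknown, so no limit of detection is given. Of 5 markers of the cells that make this transporter most values were at or near 0: Fev, a transcription factor that defines serotonergic neurons, was at 0 in 46 of 48 libraries with a highest value of 0.359 TPM, and Tph2, the neuronal enzyme that starts serotonin synthesis, was at 0 in 16 and reached 2.37 TPM at most. Lmx1b, En1 and Gata3, which are not limited to serotonergic neurons, were at 0 in 24, 40 and 44 libraries. The summed TPM of the 5 reached 20.1 in Brd1+/- vehicle, with the highest Lmx1b, En1 (7.58 TPM) and Gata3 (3.34 TPM) all in replicate 7, 7.24 in WT FLX, and at most 1.92 in each of the other groups. In Brd1+/- vehicle replicate 7, where Lmx1b was high, Slc6a4 was at 0. In WT FLX replicate 6, which held the highest Tph2, Slc6a4 was at 0.136 TPM.

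No receptor gene passed the test in any comparison. The 9 receptor genes passed the filter throughout, which gave 99 tests over 11 comparisons by limma with Benjamini-Hochberg adjustment over all genes. None was called at an adjusted p under 0.05, 6 (6.06%) had an unadjusted p under 0.05, beside 9.18% over all genes and comparisons, and the smallest adjusted p was 0.104. The groups overlapped for every receptor gene in each of the 9 pairwise comparisons. The share of all genes with overlap was not computed, so this cannot be read as a trait of the receptor genes. How many calls a list of 9 could be expected to hold is seen from the share of all tested genes called, given with each comparison below.

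**Figure D2:**
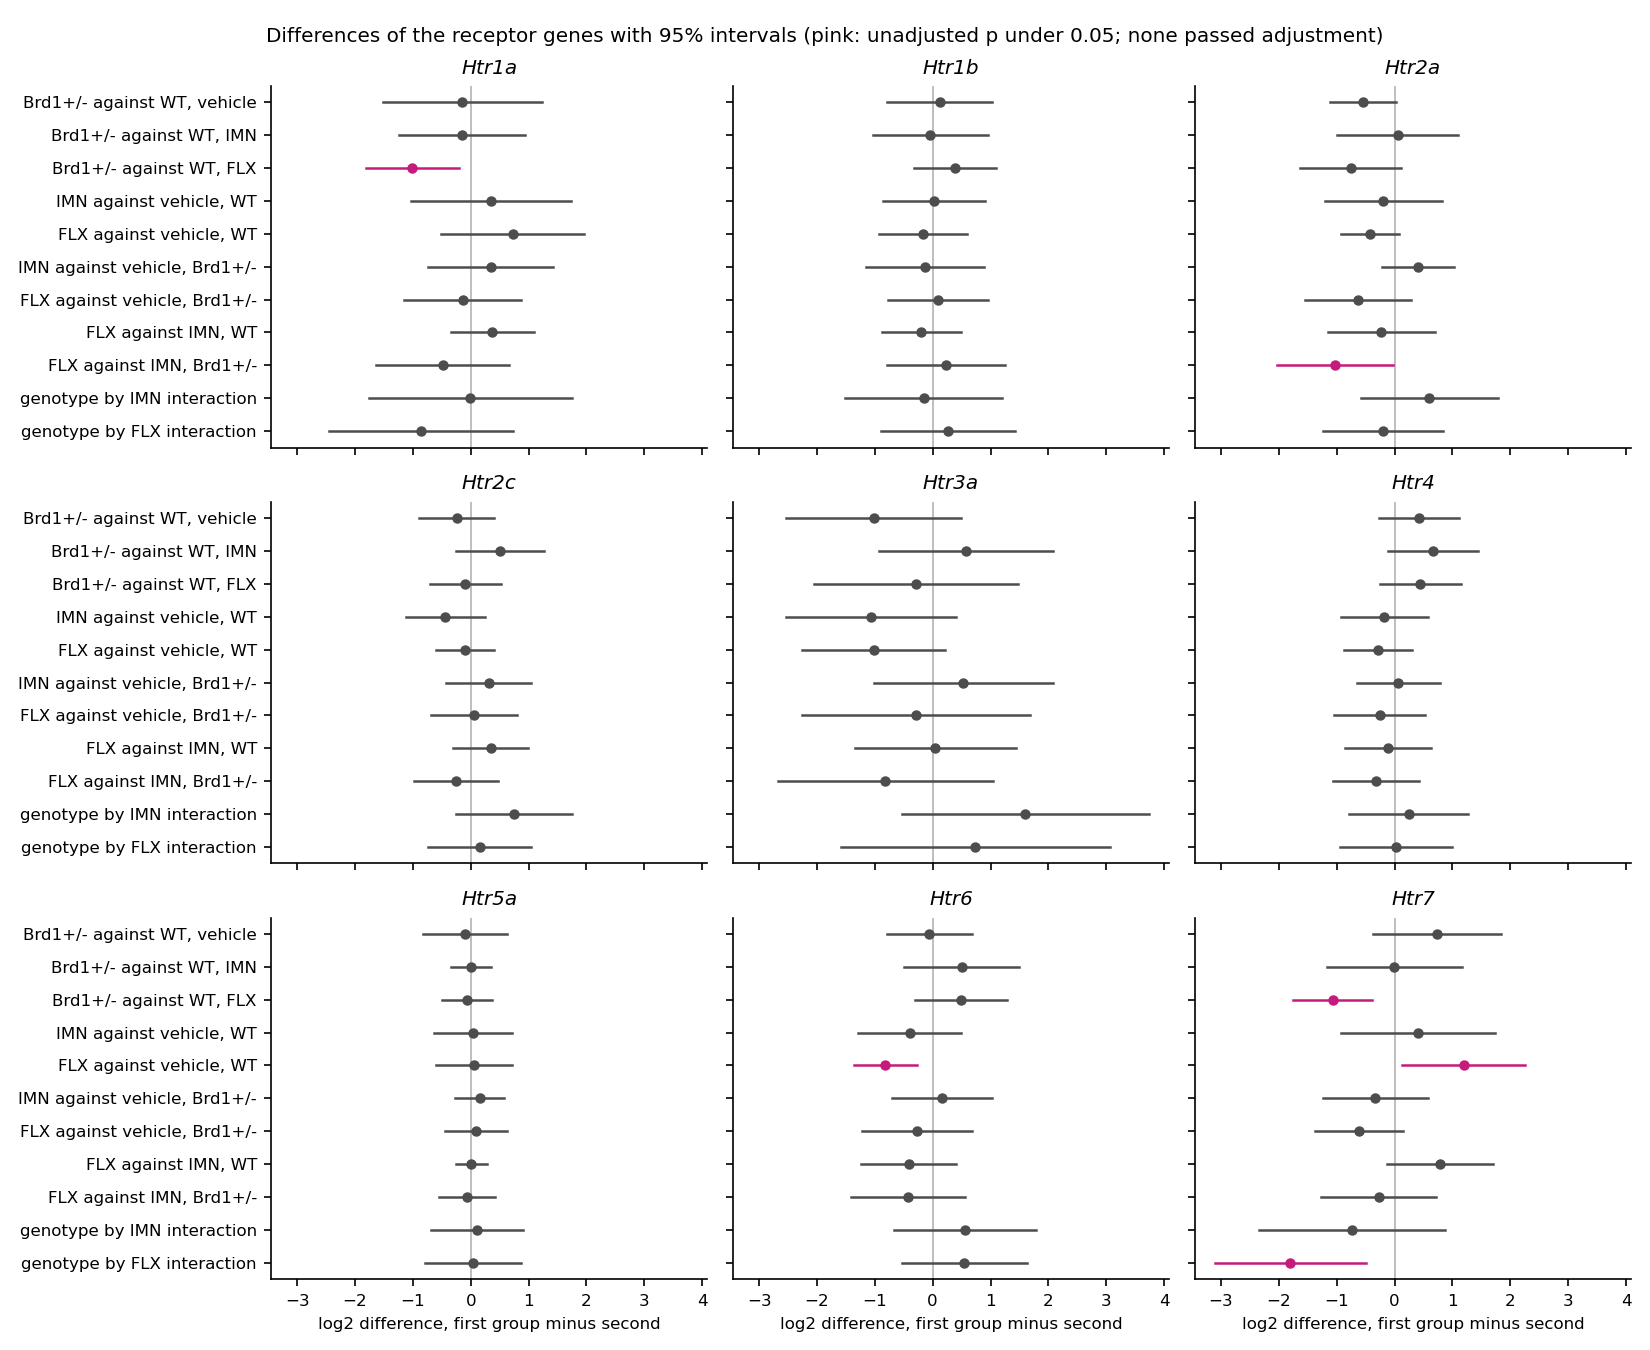
Log2 difference (horizontal axes, log2(TPM + 0.1) scale) of each receptor gene in the 9 pairwise comparisons and 2 interactions, with 95% intervals. Most intervals include 0, the 6 shown in pink do not, and in each comparison the widest is that of Htr3a.

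The study asked whether loss of a Brd1 copy alters expression in the amygdala and whether antidepressants act on this. Between Brd1+/- and WT vehicle mice, 0.708% of 24279 genes were called and none of the 9 receptor genes, of which 0 had an unadjusted p under 0.05 (8.52% of all genes). Htr2a, the Gq-coupled receptor bound by classic hallucinogens, ranged from 4.54 to 13.0 TPM with a median of 8.88 in Brd1+/- vehicle and from 5.95 to 26.8 with a median of 12.4 in WT vehicle libraries, and the groups overlapped. Its difference, Brd1+/- minus WT, was -0.55 on the log2 scale (95% interval -1.12 to 0.02, adjusted p = 0.610 by limma). Beside it, all 6 oligodendrocyte markers had an unadjusted p under 0.05 with 0 called (median 1.51), their summed TPM running from 2195 to 15522 (median 5251) in Brd1+/- vehicle and from 642 to 10381 (median 1830) in WT vehicle libraries. Of the 6 astrocyte markers 3 had an unadjusted p under 0.05 (median 0.34), and the cortical markers had a median of -1.30 with 0 of 6. Htr2a correlated with the oligodendrocyte score at r = -0.44 and the astrocyte score at -0.68 over the 48 libraries, and the part of these cells in its difference was not tested. The other 8 differences lay between -1.02 for Htr3a (95% interval -2.54 to 0.49) and 0.73 for Htr7 (95% interval -0.38 to 1.84). The median over the 9 was -0.10, beside 0.03 over all genes.

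After IMN no receptor gene passed the test between genotypes. Of 23581 genes 0.017% were called between Brd1+/- IMN and WT IMN mice, and 0 of 9 receptor genes by limma, with 0 at an unadjusted p under 0.05 (3.58% of all genes). Htr4, a Gs-coupled receptor, had the largest difference, 0.66 (95% interval -0.12 to 1.44), with 5.30 ± 2.74 TPM in Brd1+/- IMN and 3.66 ± 2.97 in WT IMN libraries. Htr5a differed by 0.01 with an interval of -0.33 to 0.35, which is 0.794-fold to 1.27-fold. The median of the 9 was 0.05, beside 0.01 for all genes.

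After FLX 2 receptor genes, Htr7 and Htr1a, had an unadjusted p under 0.05 between genotypes, and none was called. Between Brd1+/- FLX and WT FLX mice 1.54% of 23635 genes were called and 16.6% had an unadjusted p under 0.05, and of the receptor genes 0 of 9 and 2 of 9. Htr7, a Gs-coupled receptor, ranged from 1.90 to 13.6 TPM with a median of 7.74 in Brd1+/- FLX and from 8.29 to 20.7 with a median of 13.9 in WT FLX libraries. Of the Brd1+/- libraries 4 lay below every WT library and 4 lay within the WT range. The log2 difference was -1.07 (SE 0.32, 95% interval -1.75 to -0.39, adjusted p = 0.104 by limma). Htr1a, the inhibitory autoreceptor of raphe neurons that is also found on forebrain neurons, ranged from 1.17 to 12.9 TPM with a median of 5.33 in Brd1+/- FLX and from 6.07 to 13.0 with a median of 10.3 in WT FLX libraries, a difference of -1.01 (SE 0.38, 95% interval -1.82 to -0.20, adjusted p = 0.192). The other 7 differences lay between -0.76 for Htr2a and 0.49 for Htr6, and the median of the 9 was -0.09, beside -0.06 for all genes.

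The makeup of the punches moved with this comparison. Slc17a6, a vesicular glutamate transporter gene on the diencephalic marker list, averaged 77.4 ± 50.3 TPM in WT FLX and 13.5 ± 8.00 in Brd1+/- FLX libraries. The list is named for diencephalic neurons, and whether amygdala neurons also carried these transcripts was not tested. The summed TPM of its 7 markers ran from 10.9 to 196 (median 106.5) against 2.25 to 38.1 (median 15.7). Of these markers 5 were tested, 2 were called lower in Brd1+/- FLX and the median log2 difference was -3.07. With the mean log2 level of these markers as a covariate, chosen after seeing the data, the difference of Htr7 was -0.55 (adjusted p = 1.00) and that of Htr1a -0.18 (adjusted p = 1.00). In bulk tissue, fewer cells of a type and less RNA per cell cannot be told apart, and a covariate that itself differs between the groups also takes up part of any group difference.

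FLX against vehicle in WT mice gave the lowest p-values among the drug comparisons. Of 23557 genes 0.335% were called and 16.8% had an unadjusted p under 0.05, and of the receptor genes 0 of 9 were called by limma and 2 of 9 had an unadjusted p under 0.05. Htr6, a Gs-coupled receptor of striatal and cortical neurons, ranged from 2.42 to 5.13 TPM with a median of 3.18 in WT FLX and from 3.12 to 13.5 with a median of 5.64 in WT vehicle libraries. The difference, FLX minus vehicle, was -0.82 (SE 0.26, 95% interval -1.36 to -0.28, adjusted p = 0.128). When 1 library was left out the adjusted p ran from 0.0562, without WT vehicle replicate 7, to 0.238. Htr7 lay the other way, from 8.29 to 20.7 TPM in WT FLX and from 1.25 to 14.8 with a median of 8.54 in WT vehicle libraries, a difference of 1.19 (SE 0.50, 95% interval 0.13 to 2.25, adjusted p = 0.239). The WT vehicle values of Htr7 fell apart into 4 libraries at 12.2 TPM or more and 4 at 4.89 TPM or less. The median of the 9 genes was -0.17, beside 0.05 for all genes.

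Slc17a6 averaged 77.4 TPM in WT FLX and 31.5 ± 26.5 in WT vehicle libraries, so the diencephalic markers moved with this comparison too (3 of 6 tested with an unadjusted p under 0.05, median log2 difference 2.06, 0 called). So did the 6 oligodendrocyte markers, all with an unadjusted p under 0.05 and 0 called (median 1.21), with a summed TPM of 1839 to 7968 (median 5444) in WT FLX and 642 to 10381 (median 1830) in WT vehicle libraries. The cortical markers had a median of -1.67, with 2 of 6 at an unadjusted p under 0.05. Htr6 correlated with the oligodendrocyte score at r = -0.52 and with the astrocyte score at -0.71 over the 48 libraries, and the part of these cells in the result was not tested. With the diencephalic score as a covariate the difference of Htr6 was -0.38 (adjusted p = 0.741) and that of Htr7 0.39 (adjusted p = 0.875).

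The remaining comparisons of a drug with vehicle held no receptor gene with an unadjusted p under 0.05. Between WT IMN and WT vehicle mice 0% of 23644 genes were called, and 0 of 9 receptor genes by limma, with 0 at an unadjusted p under 0.05. The differences lay between -1.07 for Htr3a (95% interval -2.54 to 0.41) and 0.41 for Htr7. Between Brd1+/- IMN and Brd1+/- vehicle mice 0.776% of 24225 genes were called and none of the receptor genes, the differences lying between -0.33 for Htr7 and 0.53 for Htr3a. Between Brd1+/- FLX and Brd1+/- vehicle mice 0.731% of 24336 genes were called and none of the receptor genes, the differences lying between -0.63 for Htr2a and 0.09 for Htr5a. In both comparisons 0 of 9 receptor genes had an unadjusted p under 0.05. The sample codes of vehicle and of drug mice lie in separate ranges, so drug and any handling that followed the codes cannot be told apart. Among drug mice the highest codes were all of WT mice, so the genotype comparisons after IMN and FLX share this limit in part.

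FLX and IMN were given at different doses, and their groups are set side by side as treated. In WT mice 0% of 23501 genes were called between WT FLX and WT IMN, and 0 of 9 receptor genes by limma, with 0 at an unadjusted p under 0.05. Htr7 had the largest difference, FLX minus IMN, at 0.79 (95% interval -0.13 to 1.70). In Brd1+/- mice 0% of 23724 genes were called, and 0 of 9 receptor genes. Htr2a alone had an unadjusted p under 0.05 there, with 2.01 to 19.2 TPM (median 5.23) in Brd1+/- FLX and 6.46 to 30.1 TPM (median 10.5) in Brd1+/- IMN libraries. Its difference was -1.04 (95% interval -2.04 to -0.03, adjusted p = 1.00 by limma), and the 2 highest Brd1+/- FLX libraries, at 16.1 and 19.2 TPM, lay within the upper range of the other group.

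Whether a drug difference itself differed between genotypes was tested as an interaction. For IMN, 0.536% of 26673 genes were called and none of the 9 receptor genes, with 0 at an unadjusted p under 0.05. The largest estimate was 1.60 for Htr3a, with a 95% interval of -0.54 to 3.74. For FLX, 1.71% of 26657 genes were called and 16.8% had an unadjusted p under 0.05, against 0 and 1 of the 9 receptor genes. That gene was Htr7, for which the difference between FLX and vehicle was 1.80 lower in Brd1+/- than in WT mice on the log2 scale (estimate -1.80, SE 0.64, 95% interval -3.10 to -0.50, adjusted p = 0.139 by limma). In Brd1+/- mice Htr7 averaged 7.34 ± 3.64 TPM after FLX and 10.7 ± 4.69 after vehicle, and in WT mice 14.1 ± 4.29 and 8.35 ± 5.87. These 4 group means are also those of its genotype and drug comparisons above, so the 3 small p-values of Htr7 are not independent. With the diencephalic score as a covariate the estimate was -0.56 (adjusted p = 0.799), and with the striatal score -1.68 (adjusted p = 0.0568).

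**Figure D3:**
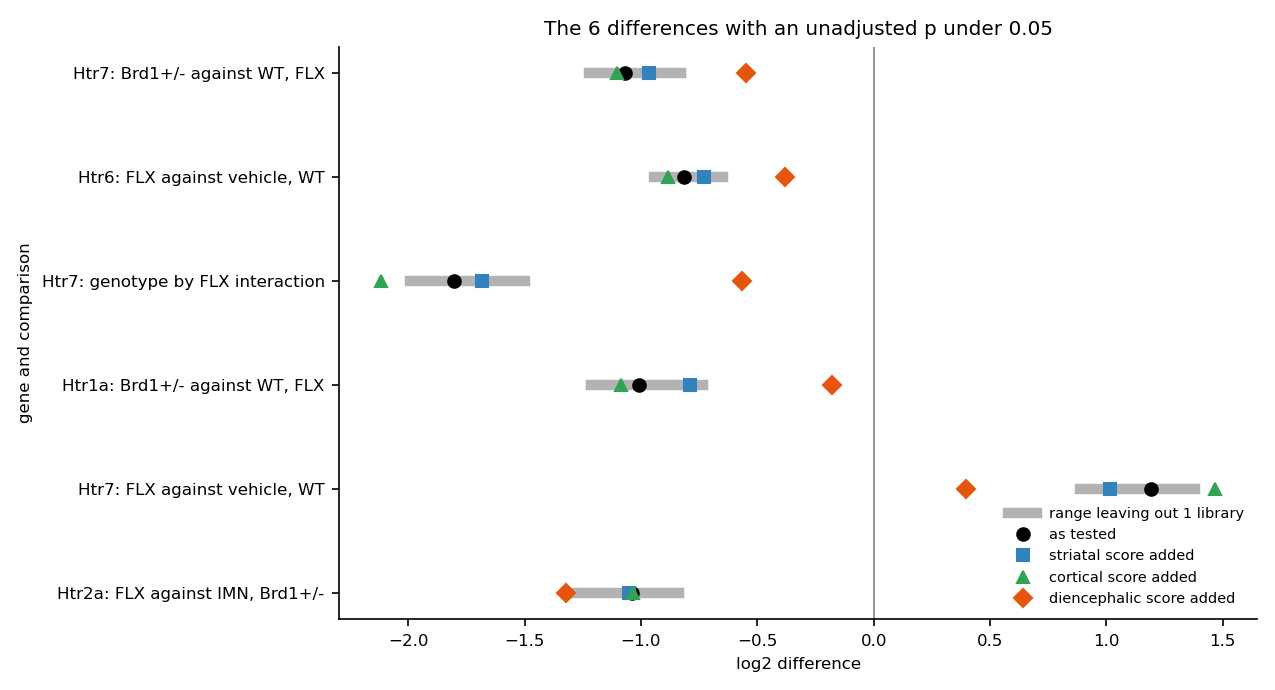
The 6 receptor gene differences with an unadjusted p under 0.05 (horizontal axis, log2 scale) as tested and with the striatal, cortical or diencephalic marker score as a covariate, with the gray bar giving the range when 1 library was left out. The diencephalic score moves 5 of the 6 toward 0, Htr1a against WT after FLX from -1.01 to -0.18, and moves Htr2a from -1.04 to -1.32.

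Differences between libraries of the same group were large in these genes. The SD within groups on the log2 scale was 0.52 for Htr5a, 0.69 for Htr2c, 0.72 for Htr4, 0.86 for Htr6, 0.87 for Htr2a, 0.90 for Htr1b, 1.03 for Htr7, 1.14 for Htr1a and 1.64 for Htr3a, beside a median of 0.38 over 19222 genes with a mean of at least 1 TPM. Group means took up 1.26% (Htr5a) to 18.5% (Htr2a) of the log2 variance of the receptor genes, beside a median of 11.1% over those genes. The rest was spread between libraries of the same treatment and genotype.

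Except in Htr4, this spread ran along the makeup of the punches. The correlations that follow describe deviations from the group means of log2(TPM + 0.1) over 48 libraries, whose points share the library and its scaling, and carry no test. Together, the striatal, cortical and diencephalic scores took up 91.4% of the within-group variance of Htr1b, 74.2% of Htr1a, 71.1% of Htr6, 63.6% of Htr5a, 62.8% of Htr3a, 58.0% of Htr7, 56.6% of Htr2a, 54.5% of Htr2c and 27.7% of Htr4. The median over the 19222 genes was 29.8%.

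The inhibitory receptors Htr1b (ENSMUSG00000049511, chr9:81628291-81633828, minus strand) and Htr1a (ENSMUSG00000021721, chr13:105443639-105448122, plus strand) had opposite patterns. Positions here and below are on GRCm38. Htr1b, a presynaptic receptor on axon terminals, correlated with the striatal score at r = 0.95 (Spearman's rho 0.90, r = 0.94 without the 2 farthest libraries), and between 0.92 and 0.97 within each of the 6 groups. Its levels ran from 6.77 TPM in Brd1+/- IMN replicate 4 to 68.7 TPM in Brd1+/- FLX replicate 2, and 58.6 TPM in WT vehicle replicate 3 was the next highest. Htr1a correlated with the striatal score at r = -0.85 (rho -0.72), between -0.92 and -0.63 within groups, and with Htr1b at r = -0.85. Where Htr1b stood at 40.9 and 58.6 TPM, in WT vehicle replicates 1 and 3, Htr1a stood at 0.741 and 0.794 TPM, its lowest values. The genes closest to Htr1b were Prkch, Adcy5 and Elmod1, each at r = 0.95, Adcy5 being the main adenylyl cyclase of striatal neurons. Those closest to Htr1a were Apba1 and Chd5, at r = 0.95, and Tnfrsf21. Htr1b shares exonic bases with the antisense gene D430036J16Rik, and its value is uncertain to that extent since no use of read strand was stated.

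**Figure D4:**
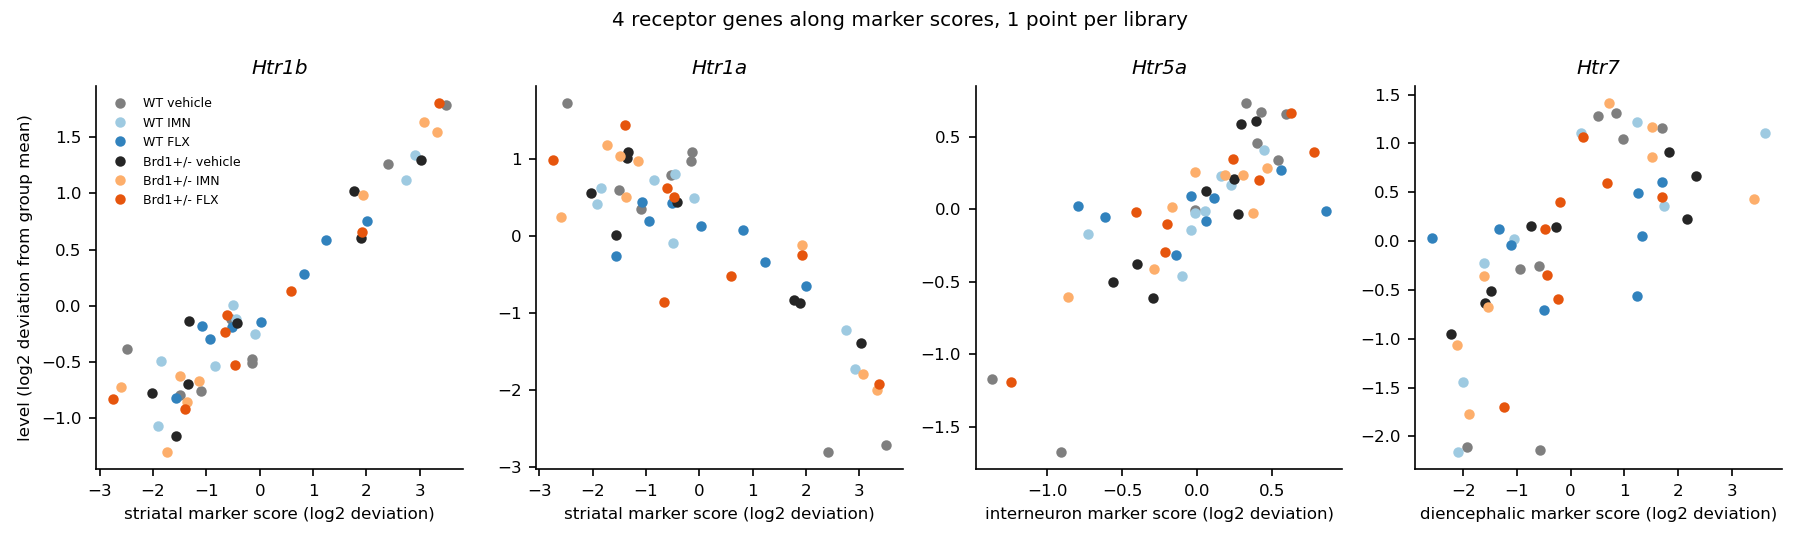
Level of 4 receptor genes in each of 48 libraries (vertical axes, log2 deviation from the group mean) against a marker score (horizontal axes, mean log2 deviation of its genes), colored by group. Htr1b climbs along the striatal score and Htr1a descends, Htr5a climbs along the interneuron score with 3 low libraries, and Htr7 climbs along the diencephalic score and levels off.

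Htr5a (ENSMUSG00000039106, chr5:27842149-27855088, plus strand), the third receptor of the inhibitory class, was the most even of the 9 and lay between 1.92 and 10.6 TPM. It correlated with the interneuron score at r = 0.81 (rho 0.82, between 0.31 and 0.94 within groups). With the cortical score it was at 0.64 (between 0.17 and 0.88 within groups). The closest genes were Nsf, Ppp2r2b and Syp, each at r = 0.95, of which Nsf and Syp encode general components of synaptic vesicle release. The largest of its 9 pairwise differences was 0.15, and their 95% intervals reached from 0.562-fold to 1.65-fold at the widest.

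The Gq-coupled receptors Htr2a (ENSMUSG00000034997, chr14:74640840-74709494, plus strand) and Htr2c (ENSMUSG00000041380, chrX:146962513-147197277, plus strand) ran apart. Htr2c, abundant in choroid plexus and in many neurons, lay between 19.9 TPM in WT IMN replicate 2 and 135.7 TPM in Brd1+/- IMN replicate 3. It correlated with the striatal score at r = -0.71 (between -0.95 and 0.06 within groups). With the diencephalic score it was at 0.58 (between 0.16 and 0.83 within groups), and with the choroid plexus score at 0.47. WT vehicle replicate 1, with the highest Ttr (28369 TPM), held 98.2 TPM of Htr2c, and WT vehicle replicate 4, which was not among the 8 libraries with high Ttr, held 105.4 TPM. The closest genes were Rxfp3, Tspan6 and Gsta4, at r = 0.86 to 0.87. Htr2a lay between 2.01 and 36.8 TPM and correlated with the striatal score at r = 0.58 and the astrocyte score at -0.68, and its closest gene was Lmtk2 at 0.86. The largest of the 9 pairwise differences of Htr2c was 0.51.

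Htr3a (ENSMUSG00000032269, chr9:48899213-48911099, minus strand), the subunit of the serotonin-gated channel that cortical interneurons carry, varied most. It lay between 0 TPM in Brd1+/- FLX replicate 6 and 14.6 TPM in Brd1+/- FLX replicate 7, so that 1 group held both ends of its range. The gene correlated with the cortical score at r = 0.67 (between 0.43 and 0.88 within groups). With the interneuron score it was at 0.66 (rho 0.80, between 0.18 and 0.99 within groups). Its closest genes were Fam19a2, Bdnf and Nwd2, each at r = 0.83. Htr3b, the other subunit of the channel, was at 0 in 45 of 48 libraries.

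Among the Gs-coupled receptors Htr6 (ENSMUSG00000028747, chr4:139061108-139075570, minus strand) and Htr7 (ENSMUSG00000024798, chr19:35958734-36057507, minus strand) had opposite patterns, and Htr4 followed no score closely. Htr6 correlated with the striatal score at r = 0.72 (between -0.04 and 0.88 within groups). With the diencephalic score it was at -0.73 (between -0.92 and -0.47 within groups), and with Htr2a at 0.75. The genes closest to Htr6 were Gm47155, Zfyve28 and Mchr1, at r = 0.90 to 0.92. Htr7 correlated with the diencephalic score at r = 0.69 (rho 0.74, between 0.24 and 0.89 within groups). With the striatal score it was at -0.70 (between -0.89 and 0.38 within groups), with Htr1a at 0.84 and with Htr6 at -0.67. The genes closest to Htr7 were Camk2n2, Pabpc1l2a-ps and Tmem130, each at r = 0.93. Htr4 lay between 1.38 and 13.4 TPM, its largest correlation with a score was 0.46 (striatal), and the closest gene, Slc30a10, reached r = 0.67.

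**Figure D5:**
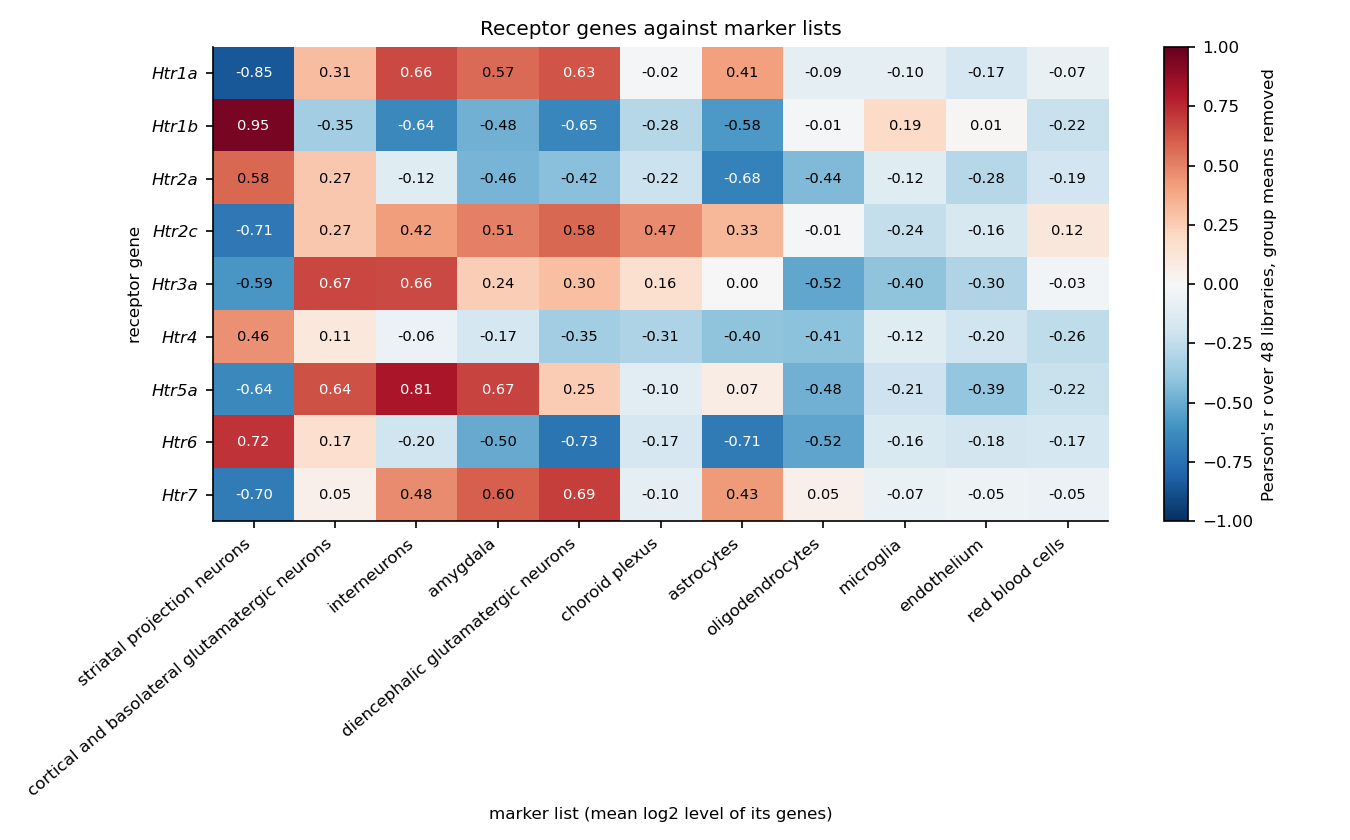
Pearson's r (color and printed value) between each receptor gene (rows) and the score of each marker list (columns) over 48 libraries with group means removed. Htr1b is at 0.95 and Htr1a at -0.85 for striatal projection neurons, Htr5a at 0.81 for interneurons and Htr6 at -0.73 for diencephalic neurons, whereas Htr4 stays within ± 0.46.

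The other genes of the pathway were mostly without calls as well. Of the 5 other serotonin receptors, Htr1d averaged 4.94 ± 4.54 TPM, Htr1f 3.51 ± 2.01, Htr5b 1.13 ± 1.44, Htr2b 0.208 ± 0.258 and Htr3b 0.00608 ± 0.0240. In 40 tests 0 were called by limma and 4 (10.0%) had an unadjusted p under 0.05, beside 9.18% over all genes and comparisons. The smallest adjusted p by limma was 0.325, for Htr1f between Brd1+/- FLX and WT FLX mice, where its unadjusted p was not under 0.05. Htr2b accounted for 3 of the 4, with 0.530 ± 0.335 TPM in Brd1+/- vehicle against 0.186 ± 0.245 in WT vehicle libraries (difference 1.31, adjusted p = 0.518). All 3 came from comparisons with the Brd1+/- vehicle group, so they are not independent, and Htr2b was at 0 in 21 of 48 libraries.

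Of 12 genes for serotonin synthesis, storage, uptake and breakdown, 0 were called by limma over the 11 comparisons and 15 tests (12.3%) had an unadjusted p under 0.05, beside 9.18% over all genes. Of these 15, 5 came from the 11 genes tested in FLX against vehicle in WT mice, and 4 from the 12 tested in the FLX interaction. In each, 16.8% of all genes had an unadjusted p under 0.05. Both use the WT FLX and WT vehicle libraries, so they are not independent. All 6 oligodendrocyte markers had an unadjusted p under 0.05 in both, and the part of these cells was not tested. Synthesis enzymes specific to serotonin were low, Tph1 at 0.193 ± 0.835 and Tph2 at 0.284 ± 0.442 TPM, while genes shared with other amines were well measured: Ddc, the decarboxylase, at 33.8 ± 29.5, Slc18a2, the vesicular monoamine transporter, at 5.81 ± 7.53, and Maoa and Maob, which break serotonin down, at 22.0 ± 5.95 and 25.7 ± 10.0. The cofactor enzymes Gch1, Pts, Spr and Qdpr averaged 1.83, 35.3, 42.4 and 273 TPM, and the low-affinity transporters Slc22a3 and Slc29a4 2.00 and 22.0 TPM. The smallest adjusted p of the list was 0.0966, for Gch1 between WT FLX (2.27 TPM) and WT vehicle libraries (1.39 TPM), a log2 difference of 0.68 with a 95% interval of 0.28 to 1.07.

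Of 24 genes for receptor coupling, which encode G proteins, their effectors and regulators, 1 was called in 264 tests. An unadjusted p under 0.05 was found in 18 (6.82%), beside 9.18% over all genes and comparisons. Plcb4, a phospholipase C driven by Gq, was lower in Brd1+/- FLX than in WT FLX mice, with 12.5 to 38.4 TPM (median 25.3) against 37.0 to 89.7 TPM (median 50.4). The groups overlapped at their edges, and the log2 difference was -1.10 (SE 0.24, 95% interval -1.60 to -0.60, adjusted p = 0.0322 by limma), where 1.54% of all genes were called. The call was lost in 8 of 16 fits that left out 1 library, with adjusted p-values from 0.0209 to 0.0749. With the diencephalic score as a covariate the difference was -0.57 (adjusted p = 1.00), and without the libraries with high Ttr -0.85 (adjusted p = 0.166).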

How the data were processed

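RNA was sequenced from right amygdala punches, as 48 libraries, with TruSeq libraries and 50 bp single-end reads. Per the labels and the study's methods, the authors aligned reads to GRCm38 with HISAT2 2.1.0, quantified genes with StringTie 1.3.4 and deposited TPM, which sum to 999524 to 999772 per library and keep no depth. Read strand was not stated. The series' design text names striatum and anterior cingulate cortex and another sequencer, whereas every sample label and the title name amygdala, and the labels were followed. Symbols came from a name table that matched 52403 of 52636 IDs, and positions and exons from GENCODE M21 on GRCm38, all 1-based. The position of Htr4 is not reported here.

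Groups followed the labels. Log2(TPM + 0.1) was fitted in limma 3.58.1 (R 4.3.3; eBayes, trended prior) on the compared groups, for genes at 0.1 TPM or more in at least 8 libraries, two-sided, with Benjamini-Hochberg adjustment over all genes tested and a threshold of 0.05. Adding 0.1 understates changes of low genes. A marker score is the mean log2 level of a list. The code was tested on simulated data. The members and lists were chosen with earlier results of these data known. The genes named were all members, Brd1, every gene of the receptor and synthesis lists, called genes of the coupling list, and the 3 genes with the highest correlation to each member. Each library was taken as 1 mouse, as the study describes its groups. Alternatives were other pseudocounts (0.01 and 1), filters, median-ratio scaling, an untrended prior, a joint fit of the 6 groups, a block for replicate number, marker scores as covariates, leaving out each library and, added after seeing the data, the diencephalic score, 3 scores together and leaving out libraries with Ttr at 1000 TPM or more.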

Additional observations from a re-analysis of the deposited data

Results flagged for a closer look

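Of 54 sets of 8 libraries, 1 for each receptor gene and group, 5 held a highest library that stood far from the others on the TPM scale. The cut used flags about 1 in 20 sets of independent, normally distributed values, which would be 2.7. The sets share libraries and the shape of the TPM values was not checked, so 2.7 is not a chance rate for these data. Htr1b reached 68.7 TPM in Brd1+/- FLX replicate 2, with the next at 31.1 TPM. Htr4 reached 10.7 TPM in WT IMN replicate 8, with the next at 3.87, and 13.4 TPM in Brd1+/- vehicle replicate 8, with the next at 7.30. Htr6 reached 16.5 TPM in WT IMN replicate 8, with the next at 8.56, and 16.02 TPM in Brd1+/- vehicle replicate 1, with the next at 8.67. On the log2 scale, on which the tests were made, 0 sets stood out.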

How the results depend on the processing

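No receptor gene was called in any comparison under any alternative. The count of called receptor genes was 0 in all 154 fits with another setting and in all 208 fits without 1 library. The direction of a difference changed in 104 of 1386 gene values under other settings, for differences of up to 0.87 in size, and without 1 library for differences of up to 0.35, in neither case with an unadjusted p under 0.05 after the change. The smallest adjusted p was 0.0562 without 1 library and 0.0568 under another setting. Same-numbered libraries correlated between -0.35 and 0.65, and at most 5 of 8 pairs exceeded 0.1. Differently numbered libraries were not compared, so these values cannot tell whether replicate numbers pair mice. The study describes litter-matched mice, and the sample labels name no litters. With replicate number as a block 0 receptor genes were called. The calls of Plcb4 and Brd1 between genotypes after FLX were lost (adjusted p = 0.118 and 0.0704 by limma), for which the cause was not tested. Median-ratio scaling moved the median difference of all genes by under 0.1 in every comparison (-0.10 to -0.03 for the FLX interaction). Depth could not be recovered from TPM, and Slc6a4 could not be tested.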
